A study of Homo sapiens with 5 samples.

Results

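The small nucleolar RNA (snoRNA) and small Cajal body RNA (scaRNA) loci of HaCaT keratinocytes were examined in 5 libraries, 2 of them controls and 3 with the label AHNAK knockdown. The loci were selected on measured values: a symbol starting with SNORA, SNORD or SCARNA and FPKM (fragments scaled to transcript length and to the mapped fragments of a library) above 0 in at least 3 of the 5 libraries. This gave 253 loci of the 27933 rows of the table, namely 143 SNORD, 95 SNORA and 15 SCARNA loci. Among the 552 rows with such symbols, 255 were 0 throughout. Detection is therefore a description here, and because knockdown has 3 libraries and control 2, a locus seen in all knockdown libraries alone could enter while one seen in both controls alone could not.

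HaCaT, an established keratinocyte line of human skin, keeps the ability to differentiate, and total RNA of these cells was used throughout. The control libraries carry the genotype label control and the others the label AHNAK knockdown, while the design text of the series speaks of a knockout. AHNAK encodes a very large scaffold protein. The sample descriptions name the control libraries NC and the knockdown libraries si, each with a number. Beyond that, the labels do not say whether replicates came from separate cultures or how the knockdown was made in each. A p-value here therefore reflects only how far these libraries spread, which may be technical.

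Box C/D snoRNAs (SNORD) guide the methylation of ribose in ribosomal and spliceosomal RNA and are bound by fibrillarin, NOP56, NOP58 and SNU13. H/ACA snoRNAs (SNORA) guide the conversion of uridine to pseudouridine and are bound by dyskerin, NHP2, NOP10 and GAR1. ScaRNAs do the same work on spliceosomal RNAs in Cajal bodies, and most human snoRNAs are cut out of the introns of host genes, many of which encode ribosomal proteins or are long non-coding RNA genes.

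Sequences are shown for 10 loci picked from those named below for their level or their difference. They were read from the GENCODE release 29 transcripts (GRCh38), which matched 198 of the 253 loci, and are written 5′ to 3′ as DNA. Capitals mark TGATGA (box C) in the first 20 bases and CTGA (box D) in the last 15 bases of a SNORD locus, and ACA starting 8 to 3 bases before the end of a SNORA locus. The first 5 are among the loci of highest mean FPKM.
SNORA40: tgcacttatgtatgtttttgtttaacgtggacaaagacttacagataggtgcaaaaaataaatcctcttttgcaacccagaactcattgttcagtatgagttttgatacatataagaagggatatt
SNORD25: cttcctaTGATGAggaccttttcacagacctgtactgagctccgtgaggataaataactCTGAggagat
SNORD36A: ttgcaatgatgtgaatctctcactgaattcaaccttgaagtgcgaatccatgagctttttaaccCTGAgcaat
SNORA70: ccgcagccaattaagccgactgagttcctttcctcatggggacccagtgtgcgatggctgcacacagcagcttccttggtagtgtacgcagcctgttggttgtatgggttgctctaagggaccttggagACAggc
SNORD104: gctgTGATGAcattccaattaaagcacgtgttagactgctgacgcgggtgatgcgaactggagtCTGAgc
The other 5 are loci whose groups did not overlap and whose differences were among the largest in either direction.
SNORD51: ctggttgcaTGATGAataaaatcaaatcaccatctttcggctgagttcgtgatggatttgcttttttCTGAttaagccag
SNORD7: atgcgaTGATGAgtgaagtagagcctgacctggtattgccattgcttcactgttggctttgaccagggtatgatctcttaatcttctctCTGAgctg
SNORD1B: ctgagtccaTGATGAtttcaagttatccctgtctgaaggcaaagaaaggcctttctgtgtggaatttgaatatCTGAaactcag
SNORD124: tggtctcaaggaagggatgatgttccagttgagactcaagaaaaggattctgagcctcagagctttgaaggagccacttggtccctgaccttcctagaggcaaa
SNORA5B: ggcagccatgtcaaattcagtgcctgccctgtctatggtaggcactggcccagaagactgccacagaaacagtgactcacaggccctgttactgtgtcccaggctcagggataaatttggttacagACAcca

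On GRCh38, SNORA40 lies on the minus strand at chr11:93735111-93735236 in TAF1D, and SNORD25 on the minus strand at chr11:62855564-62855632 in the non-coding gene SNHG1. SNORD36A lies on the plus strand at chr9:133350456-133350528 in RPL7A, SNORA70 on the plus strand at chrX:154400281-154400415 in RPL10, and SNORD104 on the plus strand at chr17:64146083-64146152 in the non-coding gene SNHG25. SNORD51 lies on the plus strand at chr2:206161878-206161957 in EEF1B2, SNORD7 on the plus strand at chr17:35573657-35573753 in the non-coding gene LINC02001, and SNORD1B on the plus strand at chr17:76561109-76561192 in the non-coding gene SNHG16. SNORD124 lies on the minus strand at chr17:40027542-40027645 in MED24, and SNORA5B on the minus strand at chr7:45105968-45106099 in TBRG4.

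The classes carried the motifs that name them. TGATGA stood in the first 20 bases of 62 of 100 SNORD loci with a sequence and of 0 of 86 SNORA loci. CTGA stood in the last 15 bases of 94 of the 100 SNORD loci, and ACA near the end of 77 of the 86 SNORA loci (89.5%). Only the transcript strand was searched. Among all 992 GENCODE snoRNA and scaRNA transcripts, which mix the classes, the shares were 24.8% for TGATGA, 43.5% for CTGA and 39.8% for ACA. Within a class, selected or not, 254 SNORD loci with a sequence had shares of 70.5% for TGATGA and 93.7% for CTGA. For ACA the share was 91.7% of 144 SNORA loci. The selected loci were therefore near or below the share of their class. SNORA40 held no ACA and SNORD124 neither TGATGA nor CTGA in these windows. Median annotated lengths were 76 bases for SNORD, 134 bases for SNORA and 166 bases for SCARNA loci, over a range of 55 to 421 bases. In 7 pairs of loci, holding 13 loci, the sequences were at least 90% identical, and FPKM of such loci is uncertain because the counting could split shared fragments. SNORA70 is one of them, with 93.3% identity to SNORA70H, which had 0.06, 0, 0.07, 0.49 and 0.62 FPKM.

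AHNAK, the targeted gene, had 204.8 and 242.0 FPKM in the controls and 113.9, 69.6 and 115.3 FPKM in the knockdown libraries, with a log2 difference of −1.19 (limma SE 0.24, adjusted p = 0.372). FPKM sums ranged from 374215 to 420541, the depth is unknown, and the 7 keratinocyte markers (KRT5, KRT14, KRT17, TP63, SFN, PERP and CDH1) were each at 1 FPKM or more in every library, with summed levels of 5770 to 7163 in the controls and 3965 to 5461 in the knockdown libraries. KRT14, KRT17, TP63 and SFN were below both controls in every knockdown library. KRT5, CDH1 and PERP (35.4 and 58.8 against 56.8, 56.4 and 86.1 FPKM) overlapped between the groups. Summed levels of 5 fibroblast markers were 3.30 to 5.00 FPKM in the controls and 6.11 to 10.2 in the knockdown libraries (DCN 1.37 and 0 against 1.83, 5.25 and 2.25 FPKM, but COL1A1 1.94 and 2.47 against 1.78, 1.28 and 1.59 FPKM), of 4 melanocyte markers 2.01 to 2.09 and 1.52 to 2.08, of 3 endothelial markers 2.08 to 2.97 and 2.06 to 2.98, and of 3 immune markers 15.5 to 17.6 and 20.4 to 27.7, nearly all of it CD68, with PTPRC at 0 in both controls. Their part in the results was not tested. Values of low genes share steps within 2 sets of libraries, set A (control 1, knockdown 1 and knockdown 3) and set B (control 2 and knockdown 2), which no label describes. Differences were therefore also computed within each set. Over the 12196 genes tested, deviations from the group mean did not follow the sets. Control 1 correlated at 0.58 with knockdown 2 and at −0.40 with knockdown 3.

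The loci were low in these libraries. Over the 253 loci the median of the mean FPKM was 3.01, and together they held 0.471% to 0.590% of the FPKM sum of a library. Multiplied by the annotated length, the median locus corresponded to 0.306 fragments in every 1000000 mapped, and 196 of the 253 loci were under 1 in 1000000 if the annotated length was the length the authors used. Of the loci, 207 were above 0 in all 5 libraries, 36 in 4 and 10 in 3. Just outside the selection, 10 loci were above 0 in 2 libraries and 34 in 1. SNORD100 (0 in 2 libraries, highest value 15.6 FPKM) stood just inside and SNORA31 (0 in 3 libraries, highest value 4.90 FPKM) just outside.

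SNORA40, an H/ACA snoRNA of the TAF1D gene, was the highest locus, with 128.7 and 105.2 FPKM in the controls and 98.5, 107.0 and 105.9 FPKM in the knockdown libraries. Control 2 lay among the knockdown libraries, and the log2 difference was −0.17 (SE 0.14). SNORD31, a box C/D snoRNA of SNHG1, had 84.6 and 98.6 FPKM in the controls and 100.7, 88.4 and 122.1 FPKM in the knockdown libraries. SNORD80, a box C/D snoRNA of GAS5, had 76.8 and 63.0 FPKM in the controls and 55.2, 89.8 and 112.8 FPKM in the knockdown libraries. Knockdown 3 was the highest library for both, and the groups overlapped in both. SNORD25, a box C/D snoRNA that guides methylation of the small-subunit ribosomal RNA, went the other way, with 87.6 and 63.7 FPKM in the controls and 69.2, 63.8 and 39.0 FPKM in the knockdown libraries.

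SNORA70, an H/ACA snoRNA hosted by RPL10, varied least among the highest loci, with 55.5 and 56.1 FPKM in the controls and 59.0, 55.2 and 58.9 FPKM in the knockdown libraries (log2 difference 0.05, SE 0.12). SNORD36A of RPL7A had 39.1 and 63.3 FPKM in the controls and 45.3, 54.1 and 112.9 FPKM in the knockdown libraries. SNORD104, which guides methylation of the large-subunit ribosomal RNA, had 49.4 and 45.4 FPKM in the controls and 44.4, 61.8 and 83.3 FPKM in the knockdown libraries. In both, knockdown 3 was the highest library and knockdown 1 lay within or below the controls.

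SNORA104 had 46.1 and 40.7 FPKM in the controls and 56.5, 43.7 and 162.2 FPKM in the knockdown libraries. It lies in an intron of ADGRE3, a gene listed at 0 in every library, and its log2 difference of 0.76 (SE 0.51, adjusted p = 0.585) rested on knockdown 3. The other 4 of the 12 highest loci, SNORD76 of GAS5, SNORD22 of SNHG1, SNORD49A of LRRC75A-AS1 and SNORD139 of RPL3, had mean levels of 36.1 to 41.8 FPKM. Knockdown 3 was the lowest library for SNORD76 (23.6 FPKM) and SNORD139 (23.0 FPKM) and the highest for SNORD22 (54.4 FPKM) and SNORD49A (58.9 FPKM).

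**Figure D1:**
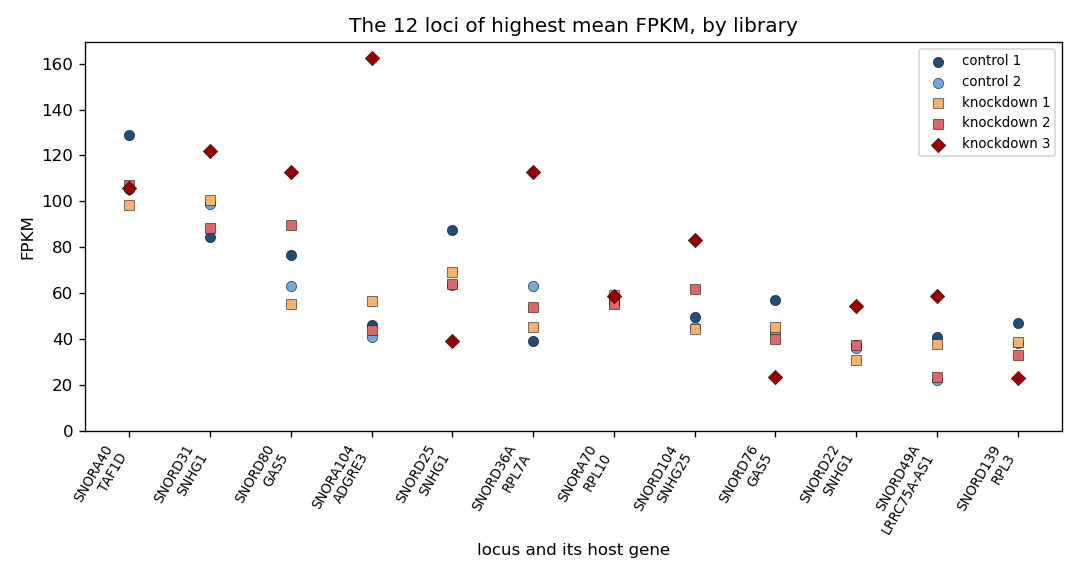
FPKM (vertical axis, linear) of the 12 loci of highest mean FPKM with their host genes, 1 point per library, circles for the 2 controls, squares for knockdown 1 and 2 and diamonds for knockdown 3. Knockdown 3 stands apart most for SNORA104 (162.2 FPKM), while the 5 libraries of SNORA70 lie between 55.2 and 59.0 FPKM.

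The level of a locus went with where it lies in its host. A host gene was found for 244 loci in GENCODE, on 146 genes. Only the 198 loci with a GENCODE match had a known strand. Any other locus was given a host where all genes covering it lay on the same strand, so such a host could be antisense to it. Among several hosts, one present in the data and then the shortest was taken. Of the loci, 54 lie in genes of ribosomal proteins and 55 in non-coding hosts. Some annotated transcript of the host covered 101 loci whole by an exon and 21 in part, while 122 were intronic in every transcript. The median of the mean FPKM was 8.72 for loci within an exon, 2.65 for partly exonic loci and 1.38 for intronic loci. For loci within an exon the median ran from 7.63 to 9.47 over the 5 libraries, and for intronic loci from 0.97 to 1.46, so these ranges did not overlap. In such bulk libraries, fewer cells with an RNA and less of it per cell cannot be told apart. Of the 20 highest loci, 17 lay within an exon.

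Both classes showed this order. Within an exon the median was 9.45 FPKM over 64 SNORD loci and 8.60 FPKM over 36 SNORA loci, and in introns 1.59 FPKM over 59 SNORD loci and 1.00 FPKM over 51 SNORA loci. Fragments of the host's own RNA that cross an exon cannot be told apart from snoRNA fragments in this table. The split depends on the transcripts used: with the GENCODE basic transcripts alone, the medians were 6.06 FPKM within an exon and 2.92 FPKM in introns. Loci in hosts of any type other than protein-coding, a slightly wider set than the 55 loci above, had a median of 5.33 FPKM. Loci in coding hosts had a median of 2.49 FPKM.

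**Figure D2:**
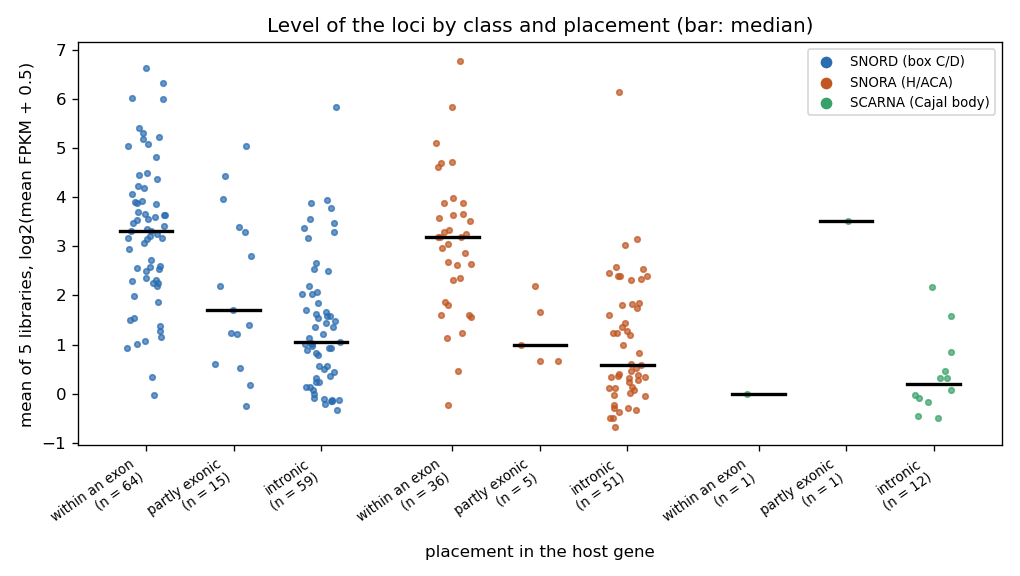
Level of each locus, log2 of the mean FPKM of 5 libraries plus 0.5 (vertical axis), by class and placement in the host gene, 1 point per locus with a bar at the median. Loci within an exon lie above intronic loci in both the SNORD and the SNORA class, with wide overlap; the 12 intronic SCARNA loci are low.

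No locus passed the test between knockdown and control. Of the 186 loci with a mean FPKM of at least 1, limma called 0 at an adjusted p under 0.05 (background over all 12196 genes tested: 0%), and the smallest adjusted p among them was 0.372. An unadjusted p under 0.05 was found for 32 loci, 19 higher and 13 lower in knockdown, which is 17.2% against 11.7% of all genes tested. All knockdown libraries lay above both controls for 20 loci (10.8%, against 16.2% of all genes) and below both for 21 (11.3%, against 15.8%). The other 67 loci were not tested. A locus can pass the filter on mean FPKM only through the group where it is high, and knockdown supplies 3 of the 5 libraries. The counts by direction among tested loci are therefore descriptions.

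The loci varied more between libraries than other genes did. The median standard deviation of log2(FPKM + 0.5) over the 5 libraries was 0.53 for the 253 loci, 0.49 for the 186 tested, and 0.20 over all genes tested; the part of their short length and low level in this was not tested. The median log2 difference was 0.08 over the 253 loci, with 140 higher and 113 lower, and 0.01 over all genes tested. Within set A it was −0.10 and within set B 0.09, and without control 2 it was −0.13, so the sign depended on the libraries used. The median deviation of the loci from their mean over libraries was 0.15 and −0.15 in the controls and −0.14, 0.13 and 0.12 in the knockdown libraries, and the groups overlapped.

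**Figure D3:**
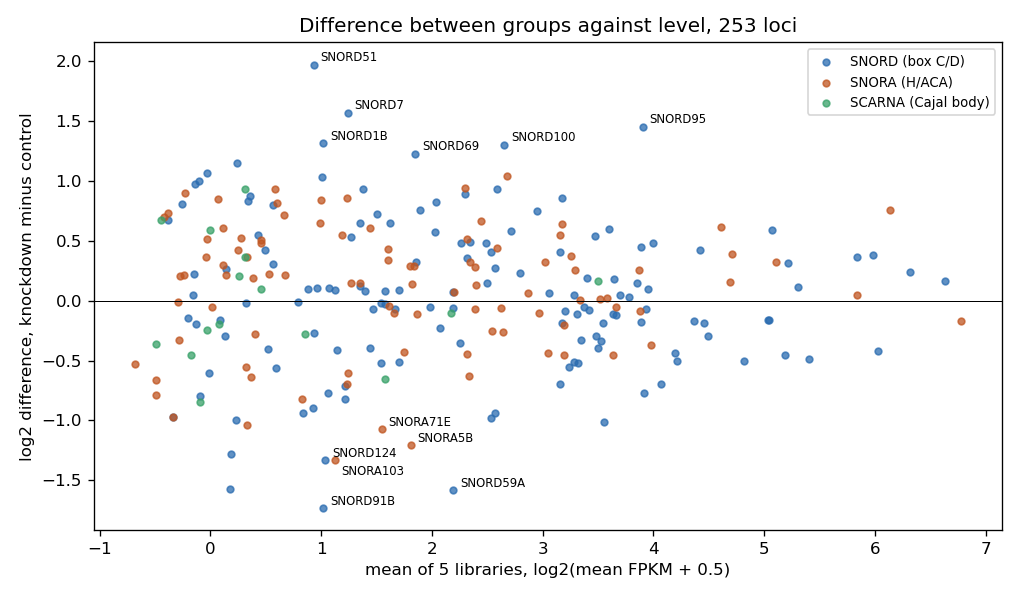
Log2 difference between knockdown and control (vertical axis) against log2 of the mean FPKM plus 0.5 (horizontal axis) for the 253 loci, coloured by class, with the 6 largest differences in each direction among loci of mean FPKM of at least 1 named. The points lie on both sides of 0 at every level and spread least at the highest levels.

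The loci named next were chosen for their differences, which are given as a description. They also passed the filter on mean FPKM, which a locus can pass only through the group where it is high. SNORD51, a box C/D snoRNA in an intron of EEF1B2, had 0.33 and 0.04 FPKM in the controls and 1.33, 2.75 and 2.59 FPKM in the knockdown libraries. Every knockdown library was above both controls, and the log2 difference was 1.97 (SE 0.31, limma adjusted p = 0.372), from controls near 0. EEF1B2 itself differed by 0.02. SNORD7, which guides methylation of the U6 spliceosomal RNA, had 0.27 and 0.98 FPKM in the controls and 2.23, 2.56 and 3.29 FPKM in the knockdown libraries (log2 difference 1.57, SE 0.30). SNORD1B had 0.24 and 0.97 FPKM in the controls and 1.72, 1.92 and 2.79 FPKM in the knockdown libraries (log2 difference 1.32, SE 0.32). The groups did not overlap for either locus. Without overlap all 3 loci had to be higher in knockdown within set A and within set B, so this adds no support.

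The other 3 large positive differences overlapped between groups. SNORD95 of RACK1 had 14.6 and 2.29 FPKM in the controls and 13.6, 28.8 and 13.2 FPKM in the knockdown libraries. Its difference of 1.46 rested on control 2: it was −0.12 within set A and 3.39 within set B. SNORD100 of RPS12 had 5.11 and 0 FPKM in the controls and 8.34, 0 and 15.6 FPKM in the knockdown libraries, the zeros being the 2 libraries of set B. SNORD69 of GNL3 had 2.23 and 0.75 FPKM in the controls and 1.88, 5.59 and 5.09 FPKM in the knockdown libraries (log2 difference 1.23, SE 0.49).

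SNORA5B, an H/ACA snoRNA in the TBRG4 gene, had the smallest p of the loci. It had 4.84 and 4.77 FPKM in the controls and 2.13, 1.43 and 1.90 FPKM in the knockdown libraries. The log2 difference was −1.20 (SE 0.17, limma adjusted p = 0.372), with −1.09 within set A and −1.45 within set B, and TBRG4 itself differed by −0.27. SNORD124 of MED24 had 2.52 and 2.84 FPKM in the controls and 1.24, 0.46 and 0.71 FPKM in the knockdown libraries (log2 difference −1.33, SE 0.26). SNORD91B of TSR1 had 3.92 and 1.91 FPKM in the controls and 0, 1.14 and 0.66 FPKM in the knockdown libraries (log2 difference −1.73, SE 0.51). The groups did not overlap for these loci, so a negative sign within each set was fixed by that.

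SNORD59A had 7.50 and 5.48 FPKM in the controls and 4.30, 2.84 and 0.27 FPKM in the knockdown libraries, so that its difference of −1.58 (SE 0.71) leaned on knockdown 3. SNORA103 of GAS5 and SNORA71E of SNHG11, at −1.33 and −1.07, overlapped between groups. Outside the naming rule, and chosen after their values were seen, SNORA27 and SNORD50A had an unadjusted p next in size to that of SNORA5B and SNORD51. SNORA27 had 2.94 and 3.87 FPKM in the controls and 6.54, 7.02 and 9.19 FPKM in the knockdown libraries (log2 difference 1.05, SE 0.19). SNORD50A of SNHG5 had 0.59 and 0.88 FPKM in the controls and 2.37, 1.91 and 1.78 FPKM in the knockdown libraries (log2 difference 1.03, SE 0.19). Neither passed the adjusted threshold (limma adjusted p = 0.372 for both).

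Box C/D and H/ACA loci were set side by side. The median log2 difference was 0.05 over the 143 SNORD loci, with 74 higher and 69 lower, and 0.19 over the 95 SNORA loci, with 59 higher and 36 lower, a gap of −0.14 between the classes. Within set A the medians were −0.21 for SNORD and −0.04 for SNORA, and within set B 0.09 and 0.10. The gap was −0.0040 without knockdown 2, −0.05 without knockdown 1, −0.07 without control 1 and −0.22 without knockdown 3. Without control 2 the medians were −0.19 for SNORD and 0.0045 for SNORA. Of the tested loci, 21 of 116 SNORD (18.1%) and 11 of 66 SNORA (16.7%) had an unadjusted p under 0.05, against 11.7% of all genes. The limit of the filter on mean FPKM applies here too.

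Among SNORA loci, the median difference was 0.29 over the 51 intronic loci, 34 of them higher, and −0.02 over the 36 loci within an exon. Over SNORD loci the medians were −0.01 in introns and 0.02 within an exon. Within set A the median of the intronic SNORA loci was −0.06 and within set B 0.10. In levels, the median FPKM over SNORD loci was 4.10 and 2.97 in the controls and 3.54, 4.32 and 5.04 in the knockdown libraries. Over SNORA loci it was 2.88 and 2.11 in the controls and 2.28, 3.00 and 2.30 in the knockdown libraries. The groups overlapped in both classes.

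The 15 SCARNA loci had a median of 0.70 FPKM, and 4 of them were tested. SCARNA12, in the PHB2 gene, had 9.02 and 11.2 FPKM in the controls and 12.6, 10.4 and 11.1 FPKM in the knockdown libraries. SCARNA22 had 5.21 and 3.30 FPKM in the controls and 3.45, 4.77 and 3.40 FPKM in the knockdown libraries. SCARNA27 had 3.66 and 2.13 FPKM in the controls and 3.52, 2.91 and 0.18 FPKM in the knockdown libraries. The groups overlapped in all 3.

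Of 21 further loci fixed by name for their roles, 10 were among the 253 loci. SNORA73B, an H/ACA snoRNA that acts in the cleavage of the ribosomal RNA precursor, had 5.45 and 7.68 FPKM in the controls and 8.78, 6.57 and 9.73 FPKM in the knockdown libraries. SNORD94, which guides methylation of the U6 spliceosomal RNA, had 3.51 and 1.26 FPKM in the controls and 4.30, 6.22 and 2.72 FPKM in the knockdown libraries. SNORA81 had 7.57 and 4.11 FPKM in the controls and 3.75, 7.34 and 5.49 FPKM in the knockdown libraries. Knockdown and control overlapped for these 3 loci and for SNORD89, while SNORD17 had 11.2 and 10.9 FPKM in the controls and 11.7, 7.0 and 5.37 FPKM in the knockdown libraries, also with overlap.

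SNORA74A, SCARNA2, SCARNA5 and SCARNA10 were under 1 FPKM on average and were not tested. SCARNA10, which guides modification of the U5 spliceosomal RNA, had 0.28 and 0.29 FPKM in the controls and 0.53, 1.15 and 1.48 FPKM in the knockdown libraries, with no overlap. SCARNA5 had 0.30 and 0.34 FPKM in the controls and 0.14, 0.12 and 0.16 FPKM in the knockdown libraries, again with no overlap and in the other direction.

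Most non-coding host genes had higher levels in the knockdown libraries, while the loci within them lay on both sides of 0. Of 23 tested non-coding hosts (GAS5, ZFAS1, EPB41L4A-AS1 and the SNHG genes), 22 had a positive log2 difference, with a median of 0.37 (0.36 within set A and 0.42 within set B); over all genes tested the median was 0.01. Counted once per locus, hosts of any type, coding ones included, had a median of 0.14 over 233 loci. This was 0.22 for loci within an exon and 0.05 for intronic loci. With each library rescaled to the same FPKM sum, 22 of the 23 non-coding hosts were again positive. In 13 of the 23, every knockdown library was above both controls, against 16.2% of all genes. None passed the limma threshold, and neither did any of the 12196 genes tested. The smallest limma adjusted p of these hosts was 0.387, and 6 of the 23 had an unadjusted p under 0.05, against 11.7% of all genes. The list as fixed also held CWF19L1, a protein-coding host, whose log2 difference was 0.04; with it 23 of 24 were positive.

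GAS5, a non-coding gene that holds 10 of the loci, had 178.1 and 175.1 FPKM in the controls and 189.7, 256.1 and 300.5 FPKM in the knockdown libraries (log2 difference 0.47, SE 0.20). SNHG1 had 103.4 and 107.2 FPKM in the controls and 111.2, 129.5 and 176.4 FPKM in the knockdown libraries (log2 difference 0.37, SE 0.21). SNHG8 had 51.1 and 56.7 FPKM in the controls and 67.9, 100.7 and 136.1 FPKM in the knockdown libraries (log2 difference 0.85, SE 0.28). In these genes the groups did not overlap and knockdown 3 was the highest library.

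The 47 loci within 19 of these non-coding hosts had a median log2 difference of 0.10, with 26 higher and 21 lower, while the median of their hosts was 0.37, and 31 of the 47 lay below their host. The loci had a median of −0.08 within set A and 0.10 within set B. The 8 loci of SNHG1 ran from −1.02 (SNORD29) to 0.17 (SNORD31), and the 10 loci of GAS5 from −1.33 (SNORA103) to 0.59 (SNORD47). Over 233 loci with a host above 0, Spearman's rho between locus and host was 0.44 for the level and 0.08 for the log2 difference; points share libraries and, in part, hosts, and these are descriptions. The rho of the level was 0.05 over the 96 loci within an exon and 0.29 over the 116 intronic loci.

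**Figure D4:**
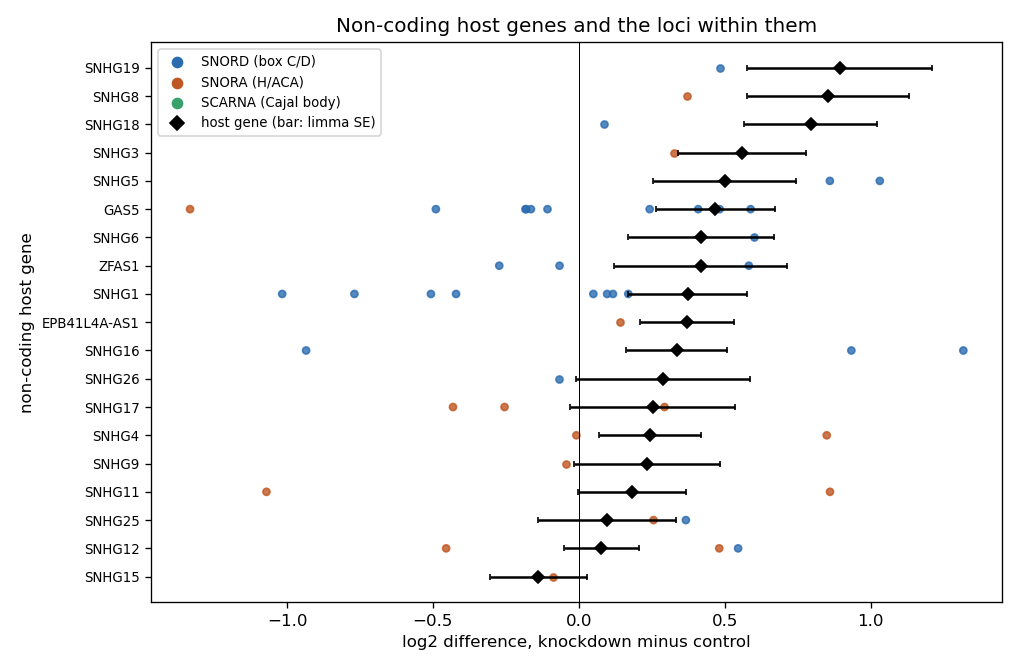
Log2 difference between knockdown and control (horizontal axis) for 19 non-coding host genes (diamonds, bars giving the limma SE) and for the 47 loci within them (points, coloured by class). The hosts lie to the right of 0 except SNHG15, while the loci lie on both sides.

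Loci of 1 host often differed in direction. Of 23 hosts with at least 3 loci each (96 loci in all), 21 held loci with differences in both directions. GNL3 was one of the other two: its 5 loci were all higher in knockdown, from 0.13 (SNORD19) to 1.23 (SNORD69), while GNL3, a nucleolar GTP-binding protein gene, differed by 0.05; 0 of the 5 passed the limma threshold. RABGGTB was the other, with all 3 of its loci lower, from −0.34 (SNORD45C) to −0.07 (SNORD45A), while the host differed by 0.17. In NOP56, which encodes a core protein of the box C/D particle, SNORD57 had 3.35 and 3.85 FPKM in the controls and 4.97, 5.08 and 5.70 FPKM in the knockdown libraries, and SNORD110 had 23.8 and 19.9 FPKM in the controls and 19.4, 16.3 and 11.1 FPKM in the knockdown libraries. The groups did not overlap for either, in opposite directions, and NOP56 itself differed by −0.06. SNORD57 and SNORD110 were chosen after their values were seen.

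In SNHG1 and GAS5 knockdown 3 was the highest library at the last loci along the host, with exceptions to any order further 5′; this was noticed after the values were seen. Set against the mean of the other 4 libraries, knockdown 3 in SNHG1 was 0.55, 0.51, 1.03, 0.87, 0.39, 1.96, 1.31 and 1.54 times as high at SNORD25, SNORD26, SNORD27, SNORD28, SNORD29, SNORD30, SNORD31 and SNORD22, from the 5′ to the 3′ end. It was the lowest library at SNORD25, SNORD26 and SNORD29, the last of which lies 50.4% along the host, and the highest at SNORD30, SNORD31 and SNORD22. SNORD29 had 16.8 and 15.1 FPKM in the controls and 11.97, 7.23 and 5.04 FPKM in the knockdown libraries. In GAS5 the ratios were 0.84, 0.51, 1.60, 0.58, 0.88, 1.30, 1.62, 1.58, 2.75 and 6.65 at SNORD74, SNORD76, SNORD77, SNORA103, SNORD44, SNORD78, SNORD79, SNORD80, SNORD47 and SNORD81. Knockdown 3 was the highest library at the last 4 of these and at SNORD77, the third, and the lowest at SNORD76 and SNORD44. SNORD47 had 22.2 and 22.4 FPKM in the controls and 14.5, 39.0 and 67.5 FPKM in the knockdown libraries, so knockdown 1 and knockdown 3 lay on opposite sides of the controls.

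Without knockdown 3 the log2 differences were −0.17 for SNORD25, −0.74 for SNORD29, 0.02 for SNORD80 and 0.10 for SNORD47, against −0.42, −1.02, 0.24 and 0.59 with it. Over the 101 loci within an exon, Spearman's rho between the position along the host and the deviation of the library was 0.23 in knockdown 3, −0.18 in control 1 and −0.11 to −0.02 in the other 3 libraries. The 40 loci in the last of 3 equal parts of the host had a median deviation of 0.51 in knockdown 3, against 0.01 for the 37 loci in the middle part and 0.08 for the 24 loci in the first part. The 40 loci include loci of SNHG1 and GAS5, where the pattern was noticed, and 7 loci of 1 other host, TAF1D. They are therefore neither separate from the first observation nor independent of each other. Over the 122 intronic loci the rho in knockdown 3 was −0.08. Base composition moved with the libraries too: over the 198 loci with a sequence, the rho between GC content and the deviation was 0.20 in knockdown 1 and −0.20 in knockdown 3. Its part in the pattern along the hosts was not tested.

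**Figure D5:**
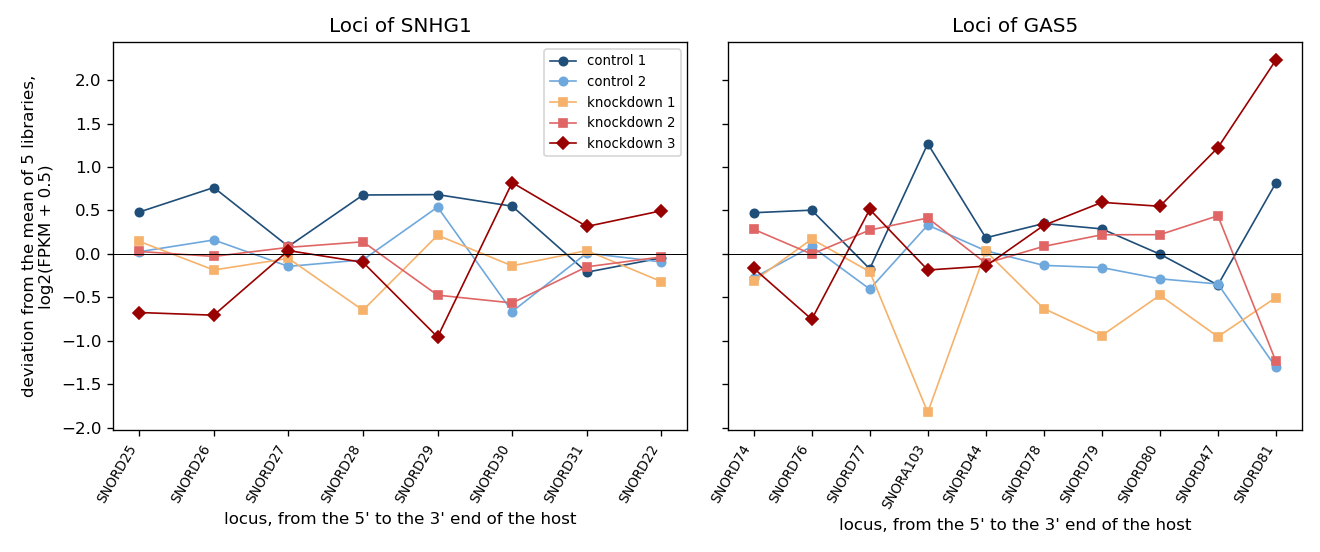
Deviation of each library from the mean of 5 libraries, on the log2(FPKM + 0.5) scale (vertical axis), for the loci of SNHG1 (left) and GAS5 (right) in order from the 5′ to the 3′ end of the host, circles for controls, squares for knockdown 1 and 2 and diamonds for knockdown 3. Knockdown 3 lies above the other libraries at the last 3 loci of SNHG1, the last 4 loci of GAS5 and SNORD77. It lies below them at SNORD25, SNORD26, SNORD29, SNORD76 and SNORD44.

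Some loci were split by the set of libraries and not by the group. Of the 253 loci, 5 (SNORD100, SNORD93, SNORD72, SCARNA8 and SNORA80B) were above 0 in all 3 libraries of set A and at 0 in both of set B. The reverse could not occur among them, because a locus seen in the 2 libraries of set B alone was not selected; SNORA74B, just outside the selection, had 0.36 and 0.39 FPKM in set B and 0 in set A. SNORD93 had 6.13 FPKM in control 1 and 1.07 and 6.14 FPKM in knockdown 1 and 3. All set A libraries lay above both set B libraries for 14 of the 186 tested loci (7.53%), against 0.746% of all genes tested, and below both for 3 (1.61%), against 0.681%. For interchangeable libraries the chance of each order is 0.1, and both shares of the loci are under it. The shares of all genes are lower still, so 0.1 is no reference rate for these libraries. Whether the loci follow the sets was not tested.

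The protein genes of the snoRNA particles showed no difference that passed the test. None of the 12196 genes tested passed it, AHNAK included, so this says little about these genes. Of the box C/D core genes, FBL (fibrillarin) had 122.0 and 118.5 FPKM in the controls and 131.5, 137.7 and 157.2 FPKM in the knockdown libraries (log2 difference 0.24, SE 0.14, limma adjusted p = 0.53), with no overlap, while NOP56, NOP58 and SNU13 differed by −0.06, −0.03 and 0.09. The 4 H/ACA core genes DKC1, NHP2, NOP10 and GAR1 had positive differences of 0.10 to 0.32. Of 23 genes for assembly, trafficking and processing, 10 were higher and 13 lower. In 8 of the 23 (NUFIP1, RUVBL1, SHQ1, WRAP53, NOP2, EXOSC10, XRN2 and TBP) every knockdown library was below both controls, against 15.8% of all genes, and in 1 (NOLC1) above both, against 16.2%. NOLC1, a nucleolar and Cajal body phosphoprotein, had 28.9 and 37.4 FPKM in the controls and 58.0, 41.6 and 47.0 FPKM in the knockdown libraries (log2 difference 0.55, SE 0.19, limma adjusted p = 0.394). XRN2, the nuclear exonuclease that trims snoRNA ends, had 40.6 and 38.2 FPKM in the controls and 32.4, 31.8 and 33.0 FPKM in the knockdown libraries (log2 difference −0.28, SE 0.12, limma adjusted p = 0.44).

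Of 14 other small structured RNAs in the table, 3 reached a mean of 1 FPKM. RMRP, the RNA of the mitochondrial RNA processing ribonuclease, had 0.56 and 3.67 FPKM in the controls and 1.82, 5.11 and 13.5 FPKM in the knockdown libraries. RPPH1, the RNA of ribonuclease P, had 0.32 and 1.22 FPKM in the controls and 0.57, 1.54 and 4.31 FPKM in the knockdown libraries. Both were lowest in control 1 and highest in knockdown 3, with overlap between the groups, and RNU5F-1 differed by 0.43.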

How the data were processed

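Total RNA of HaCaT cells was sequenced in 2 control and 3 knockdown libraries, and groups came from the labels. The authors deposited 1 table of FPKM values with 1 row per gene symbol; 0 of its library columns were left unused. HISAT2 2.0.1 and StringTie 2.0.6 are named per the submitters' processing notes, which list GRCh38 and mm9 without a role. Annotation, library selection and strand handling are not given in the sources used, so a locus and an overlapping host cannot be separated by strand, and FPKM of genes shorter than a fragment depends on how length was treated.

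All genes with a mean FPKM of at least 1 (12196) were fitted as log2(FPKM + 0.5) with limma 3.58.1 in R 4.3.3 (lmFit, eBayes with trend, 2-sided, Benjamini-Hochberg, threshold 0.05), without covariates, after a check on simulated data. Differences of low loci are understated on this scale. Medians used all 253 loci. Coordinates came from RefSeq by symbol (253 matched). Sequences and strands came from GENCODE release 29 (at least 80% reciprocal overlap, 198 matched). Hosts and exons came from the same release by position, on the strand of the locus where that was known. Loci were named by rule: any past the threshold, the 12 highest, the 6 largest differences in each direction with a mean FPKM of at least 1, the 3 highest SCARNA loci and 21 fixed loci, of which 10 were members and the other 11 were not analysed here. The members and lists were chosen with earlier results of these data known. The alternatives changed the pseudocount, filter, scaling, variance model or library weights, added a term for the sets or a replicate block, or left out 1 library; those for host genes and placement were chosen after seeing the data.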

Additional observations from a re-analysis of the deposited data

How the results depend on the processing

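The count of 0 loci past the threshold held under every alternative run except limma array weights, which gave 28 of 186 loci (16 higher, 12 lower; 15.1%, against 11.7% of all genes) with a weight of 3.98 for knockdown 2 and 0.26 for knockdown 3. The cause was not tested. With each library left out the count was 0 throughout, the median over all loci ran from −0.13 to 0.16, over SNORD from −0.19 to 0.14, over SNORA from 0.0045 to 0.19, and their gap from −0.22 to −0.0040. Medians of FPKM with GENCODE basic transcripts were 6.06 within an exon and 2.92 in introns, since fewer exons count. The median over the host list (CWF19L1 included) stayed between 0.28 and 0.47 in all fits.

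Of 499 other fits of 32 named loci, 21 reversed the sign, in 10 loci, none of them past the threshold as reported. With array weights, SNORD31 was at −0.0020, SNORA70 at −0.00017, SNORD49A at −0.20, SNORD100 at −1.01, SNORA71E at 0.24, SCARNA22 at 0.11 and SNORA81 at 0.24. With libraries rescaled to 1 FPKM sum, SNORA70 was at −0.0076. With a library left out, SNORD36A ran from −0.0070 to 0.73, SNORD22 from −0.11 to 0.30, SNORD49A from −0.13 to 0.76, SNORD100 from −0.44 to 3.05, SCARNA22 from −0.40 to 0.19, SCARNA27 from −1.12 to 0.16 and SNORA81 from −0.47 to 0.34. Array weights moved 5 loci past the threshold: SNORD51, SNORD7, SNORD1B, SNORD124 and SNORA5B.

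The replicate numbers are shared by only 2 pairs and no label ties them to a batch. With the replicate block, knockdown 3 has no partner, the count stayed 0, the gap between classes was −0.22, and SNORD36A was at −0.0070, SNORD22 at −0.11, SNORD49A at −0.0046 and SCARNA27 at 0.16. Deviations of same-numbered libraries from their group mean correlated at −0.06 and −0.58 over 12196 genes. Both pairs also lie within a set, as do control 1 and knockdown 3, which correlated at −0.40. Across the sets, control 1 and knockdown 2 correlated at 0.58 and control 2 and knockdown 3 at 0.40. With 2 controls, the values of control 1 and control 2 with any knockdown library are equal and opposite.

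A depth per library is not given, so a locus at 0 cannot be told from one below detection.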
